A study of Mus musculus with 9 samples.

Results

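The T cell receptor complex and the signalling proteins nearest to it were followed through 10 genes of the 55536 in the count table. Members were chosen by name and looked up by Ensembl identifier in the mouse annotation for GRCm38: the receptor chain genes Cd3e, Cd3d, Cd3g, Cd247 and Trbc2, the coreceptor gene Cd4, the kinase genes Lck, Fyn and Zap70, and the adaptor gene Lat. All 10 were found, and all 10 passed the filter on low counts together with 14674 other genes. CD4+ T cells of genotype WT, from spleens of male mice 6 to 12 weeks old, had been cultured for 18 h in every group with beads that carry anti-CD3 and anti-CD28, and with IL-2 at 5 ng/mL. The groups, of 3 libraries each, differed in what else was added: PBS (PBS), exosomes of wild-type BMDM (WT-BMDM-exo, here WT_exo), or exosomes of ApoE-deficient BMDM (EKO-BMDM-exo, here EKO_exo), with 2e+09 particles per mL as the exosome dose. No group lacked the beads, so each level below is that of stimulated cells. ApoE was missing in the donors of the EKO-BMDM-exo only, so no gene of the T cells themselves checks that genotype.

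The T cell receptor recognises peptides on MHC molecules through its alpha and beta chains, which carry no signalling domain of their own. CD3 epsilon, delta, gamma and zeta form the rest of the complex and carry the tyrosine motifs that are phosphorylated by Lck, a Src family kinase that binds to the tail of CD4, and by the related kinase Fyn. Zap70 docks on the phosphorylated motifs and phosphorylates Lat, a membrane adaptor on which further enzymes assemble. Antibodies to CD3, as on the beads used here, engage the complex without antigen.

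The promoter windows of the 3 members that rose under EKO_exo, Fyn, Cd247 and Cd3e, are given first, so that these genes can be compared in sequence as well as in level. Each window runs from 250 bases before to 50 bases after a start site, on the gene's strand, from RefSeq on GRCm38.p6: chr10:39369549-39369848 on the plus strand for Fyn, chr1:165788431-165788730 on the plus strand for Cd247 and chr9:45009562-45009861 on the minus strand for Cd3e. Capitals mark AGGAAG, a core bound by ETS factors, and CAGGTG, an E-box, in either orientation.
Fyn: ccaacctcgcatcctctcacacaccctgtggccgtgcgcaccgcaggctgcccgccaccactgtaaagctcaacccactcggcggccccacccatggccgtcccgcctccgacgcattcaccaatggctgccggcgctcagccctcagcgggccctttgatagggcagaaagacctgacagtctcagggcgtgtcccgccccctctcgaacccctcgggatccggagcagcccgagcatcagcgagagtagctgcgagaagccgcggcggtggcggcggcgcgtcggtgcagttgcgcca
Cd247: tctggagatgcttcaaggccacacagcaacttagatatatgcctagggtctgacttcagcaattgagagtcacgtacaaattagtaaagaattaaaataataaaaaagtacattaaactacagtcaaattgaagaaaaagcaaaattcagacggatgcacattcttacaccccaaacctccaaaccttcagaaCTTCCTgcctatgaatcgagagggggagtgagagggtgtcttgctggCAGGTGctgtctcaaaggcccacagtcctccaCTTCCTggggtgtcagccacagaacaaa
Cd3e: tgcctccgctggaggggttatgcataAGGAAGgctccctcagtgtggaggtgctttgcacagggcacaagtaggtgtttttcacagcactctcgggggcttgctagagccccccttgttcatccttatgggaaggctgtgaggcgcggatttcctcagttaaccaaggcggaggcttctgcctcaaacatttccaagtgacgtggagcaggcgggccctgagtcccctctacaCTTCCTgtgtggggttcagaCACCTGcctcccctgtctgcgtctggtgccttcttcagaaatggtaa

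The Fyn window held neither motif and stood apart in base composition, with 69.0% G and C and 31 CpG dinucleotides, against 43.7% and 3 in Cd247 and 56.7% and 8 in Cd3e. Over all 32851 windows of the table the medians were 52.7% and 7. Of the 10 members 8 had a window, some several, which gave 11 windows. AGGAAG lay in 8 of these 11, in windows of Cd247, Cd3d, Cd3e, Lat, Lck and Zap70, and in 35.4% of all windows. CAGGTG also lay in 8 of 11, in windows of Cd247, Cd3d, Cd3e, Cd3g, Lck and Zap70, and in 20.2% of all windows. Other motifs were searched on both strands in the same way. TGTGGT, a core of RUNX factors, lay in 3 of the 11 windows (Lat, Lck and Zap70) and in 16.8% of all. GGGCGG, a core of SP1, lay in 3 (Cd3g, Fyn and Lck) and in 35.7% of all. TGACTCA of AP-1, the NF-kB motif and the TATA box TATAAA lay in 0 of the 11, and in 5.2%, 0.2% and 13.6% of all windows. Related forms gave other counts: of the ETS forms GGAAGT lay in 6 of 11 (23.8% of all) and TTCCTGT in 5 (8.7%), the E-box CAGCTG in 1 (16.3%) and the longer RUNX form TGTGGTT in 1 (5.3%). Matches of these forms overlap those of the shorter cores in part, and AGGAAG and CAGGTG were picked for the capitals after these counts were seen. The ETS core and the E-box lay in windows of Cd247 and Cd3e, which rose, and of some members that did not pass the test. Cd3g lacked AGGAAG and Lat lacked CAGGTG, while Fyn, the member with the largest rise, had neither within its window.

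Library totals ran from 25792975 to 32971791 counts, and a single member held between 4054 and 27366 counts in a library. The coefficient of variation of a member within a group was 0.678% to 6.73%. The EKO_exo libraries had fewer genes with a count (19038 to 19518) than the PBS libraries (20120 to 20373) and the WT_exo libraries (19989 to 20568). On the first principal component of log2 CPM, EKO_exo replicate 3 lay at 61.6, away from the other libraries. EKO_exo replicate 1 lay apart on the second, at -54. On the third, EKO_exo replicate 2 lay at -36.4, where the other libraries ran from -12.9 to 25.3. Each EKO_exo library was thus the extreme of a component, and replicate 2 cannot be taken as the typical one. Results for EKO_exo against PBS are also given without replicates 1 and 3. Against the label of CD4+ T cells, Cd4 stood at 819.6 to 897.4 CPM in single libraries and Cd8a at group means of at most 0.6 CPM. Transcripts of other markers were present too: group means of Cd8b1 reached 11.13 CPM, of Eomes 23.77, of Igkc 127.1 and of Ighm 478.5.

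Counts per 1000000 (CPM, relative to the TMM-scaled library size) serve to compare libraries, and transcripts per 1000000 (TPM, counts divided by the summed exon length of a gene) to compare genes. In PBS the length-scaled level was highest for Trbc2, the constant region of the receptor beta chain, at 1020 ± 25.6 TPM (SD, n = 3), and next for Cd4 at 821 ± 12.7 TPM. Lck (589 ± 14.8 TPM) and Lat (588 ± 9.75 TPM) followed and could not be ordered, since their libraries overlapped. Below them came Cd3e at 444 ± 5.42 TPM, Zap70 at 365 ± 10.7, Cd3d at 316 ± 10, Cd247 at 262 ± 2.89, Fyn at 247 ± 4.8 and Cd3g at 205 ± 12.7, and neighbours among these did not overlap over their libraries. Among the CD3 chains of the complex, the length-scaled level thus went from Cd3e through Cd3d and Cd247 to Cd3g. This scale divides by all annotated exon bases of a gene, not by the length of the mRNA forms present. The order between genes therefore depends on the annotation, and overlap of libraries covers only the spread among libraries. Of the Src family kinases, Lck stood higher on this scale, at 2.327 to 2.454 times the level of Fyn in PBS. It stood at 2.084 to 2.32 times in WT_exo and 2.106 to 2.223 times in EKO_exo.

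**Figure D1:**
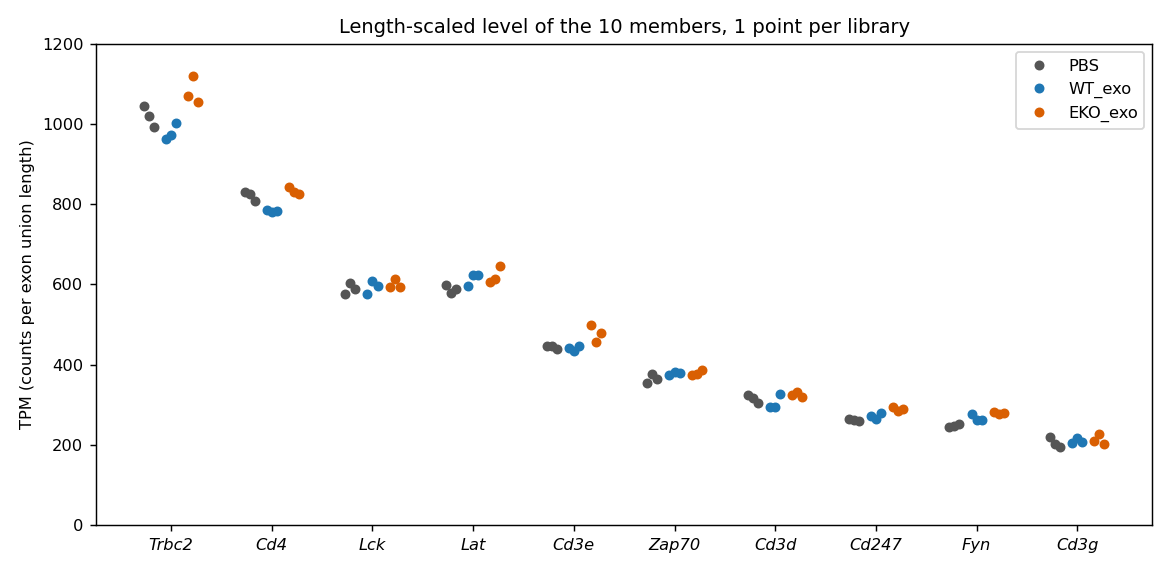
Length-scaled level (TPM, vertical axis from 0) of the 10 members (horizontal axis, ordered by their mean in PBS), with 1 point for each of the 9 libraries, coloured by group. Trbc2 lies near 1020 TPM and Cd3g near 205 TPM in PBS, and Lck and Lat overlap.

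The same order held in WT_exo and EKO_exo except that Lat then had the higher mean of the overlapping pair Lat and Lck. Cd247 and Fyn also overlapped in WT_exo, at 271 ± 7.18 and 267 ± 8.02 TPM. The level of Trbc2 is uncertain, because 44% of the windows of 50 bases in its 692-base transcript also occur in Trbc1, the other beta chain constant gene, and how reads that fit both were counted is not given in the sources used here. Cd247 shares 56.43% of its annotated exon bases with Pou2f1, a transcription factor gene on the opposite strand, and without the strand setting of the counting, reads of this stretch cannot be told apart.

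The first comparison set EKO_exo against PBS, to see which mRNAs of the receptor and its kinases differed after exosomes of ApoE-deficient BMDM. Fyn, Cd247 and Cd3e rose, by 13.7%, 11.2% and 8.54%, and no member fell. These were 3 of 10 members called higher at an adjusted p under 0.05 (edgeR quasi-likelihood test, Benjamini-Hochberg over all genes tested), where 2.21% of all genes tested were called higher and 2.87% lower. In 6 of 10 members every EKO_exo library lay above every PBS library, which held for 9.94% of all genes tested. These shares include genes with far fewer counts than the members. When only the 9566 genes with a mean of 5 CPM or more were tested, 460 were called higher and 543 lower (edgeR). Fewer cells of a type and less RNA per cell cannot be told apart in such bulk libraries.

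Fyn, which encodes the Src family kinase that acts beside Lck (ENSMUSG00000019843, chromosome 10, 39368855 to 39565381), was at 279.7, 281.8 and 287.4 CPM in PBS replicates 1, 2 and 3. It was at 325.5, 317.2 and 322.8 CPM in EKO_exo and at 314.9, 298.7 and 301.2 CPM in WT_exo. The EKO_exo libraries were the highest, the PBS libraries the lowest, and no groups overlapped. The log2 fold change of EKO_exo against PBS was 0.19 ± 0.035 (SE, edgeR adjusted p = 0.00113). It kept its call when any single library was left out, with 0.18 to 0.19 log2 and an edgeR adjusted p of 0.00168 to 0.0118. With EKO_exo replicate 2 as the only EKO_exo library it was 0.16 ± 0.048 (edgeR adjusted p = 0.0786).

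Cd247, which encodes CD3 zeta, the chain with the longest signalling tail of the complex (ENSMUSG00000005763, chromosome 1, 165788681 to 165877277), was at 372.9, 365 and 361.2 CPM in PBS. It was at 415.9, 400.3 and 406.3 CPM in EKO_exo and at 376.9, 367.2 and 390 CPM in WT_exo. EKO_exo lay above both other groups without overlap, while WT_exo and PBS overlapped. The log2 fold change of EKO_exo against PBS was 0.15 ± 0.034 (edgeR adjusted p = 0.00539), and it was called without any single library, with an edgeR adjusted p of 0.0074 to 0.0373. With EKO_exo replicate 2 as the only EKO_exo library it was 0.13 ± 0.045 (edgeR adjusted p = 0.205). Pou2f1, which shares exon bases with Cd247, was at 69.32 ± 2.65 CPM (SD, n = 3) without exosomes and 76.23 ± 4.02 CPM after EKO_exo. It differed by 0.14 ± 0.059 log2 (edgeR adjusted p = 0.217). The part of reads from Pou2f1 in the Cd247 values was not tested.

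Cd3e, which encodes CD3 epsilon, the chain that pairs with both CD3 delta and CD3 gamma (ENSMUSG00000032093, chromosome 9, 44998740 to 45009627), was at 481.3, 477.7 and 465.7 CPM in PBS. It was at 537.3, 492.3 and 516.6 CPM in EKO_exo and at 470.8, 460.5 and 478.8 CPM in WT_exo. EKO_exo was again above both other groups, with replicate 2 the lowest of its libraries. The log2 fold change against PBS was 0.12 ± 0.034 (edgeR adjusted p = 0.0361). This call was fragile: of the 9 fits that leave out a library, only that without EKO_exo replicate 2 called Cd3e (edgeR adjusted p = 0.0135). The other 8 gave 0.0502 to 0.186, the highest being that without EKO_exo replicate 1. It was 0.05 ± 0.042 log2 with EKO_exo replicate 2 alone (edgeR adjusted p = 0.698).

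The partners of Cd3e did not pass the test. Cd3d, encoding CD3 delta, was at 155.4, 151 and 144.3 CPM in PBS and at 155.8, 158.6 and 152.6 CPM in EKO_exo, with overlapping groups and a log2 fold change of 0.05 ± 0.048 (95% interval -0.05 to 0.15). Cd3g, encoding CD3 gamma, was at 189, 172.1 and 166.2 CPM in PBS and at 180.9, 195 and 174.4 CPM in EKO_exo, also overlapping, with 0.06 ± 0.049 (95% interval -0.04 to 0.16). On chromosome 9 these genes are neighbours: Cd3g and Cd3d lie head to head, 1354 bp apart, and Cd3e lies 11400 bp beyond Cd3d. Trbc2 was at 190.5, 185.1 and 179.2 CPM in PBS and at 195.4, 204.5 and 192.9 CPM in EKO_exo. Its groups did not overlap, but the difference of 0.10 ± 0.042 log2 did not pass (edgeR adjusted p = 0.221). Trbc1, its near copy, had a mean ± SD (n = 3) of 97.84 ± 1.8 CPM in PBS and 93.44 ± 8.78 CPM in EKO_exo. Over the sum of Trbc1 and Trbc2, PBS (276.2 to 287.2 CPM) and EKO_exo (279.4 to 307.8 CPM) overlapped.

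**Figure D2:**
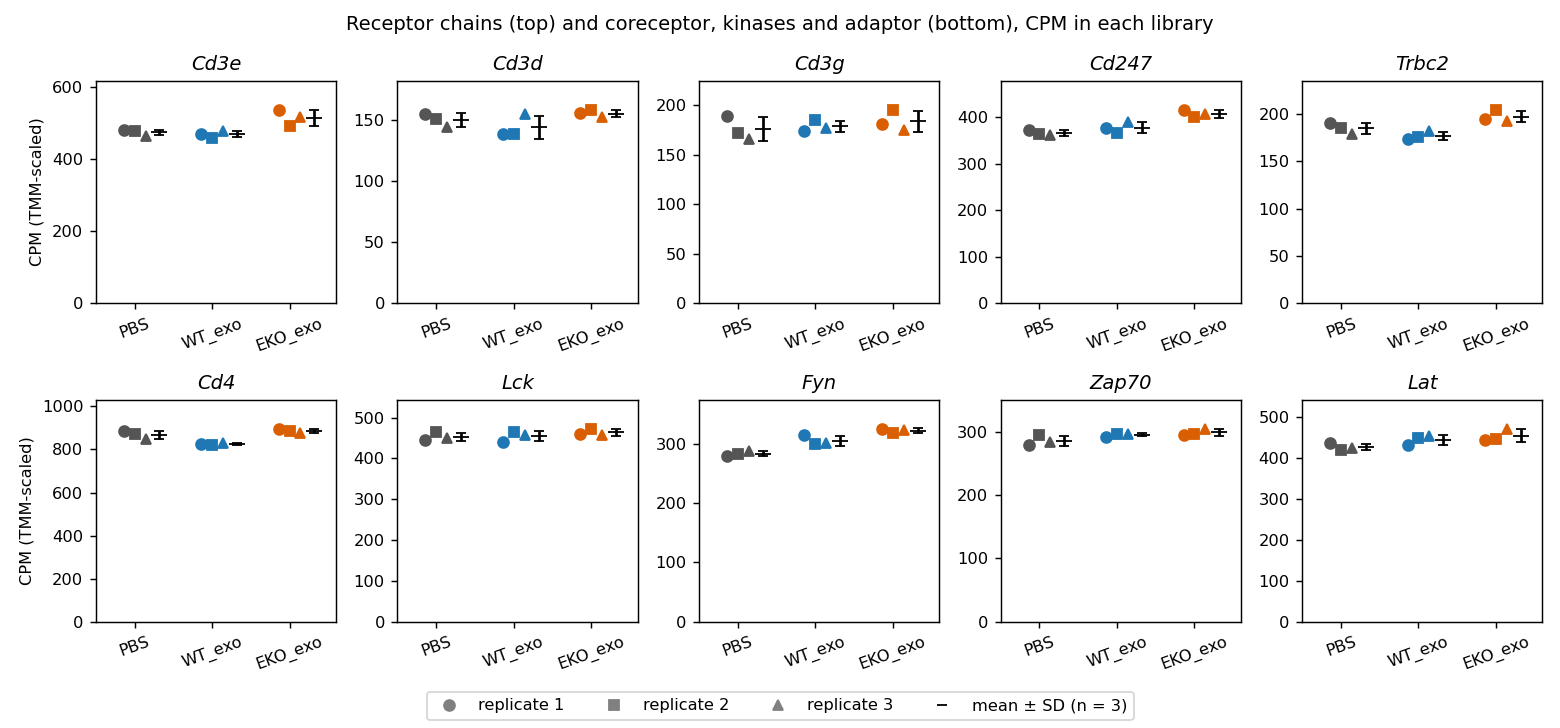
CPM of each member (vertical axes from 0) by group, with 1 symbol per library and the mean ± SD (n = 3) in black, receptor chains above and coreceptor, kinases and adaptor below. The EKO_exo libraries of Fyn, Cd247 and Cd3e lie above all PBS libraries, and those of Cd3d, Cd3g, Cd4 and Lck overlap them.

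Among the other signalling members, Cd4 was at 883.9, 871.7 and 848.5 CPM in PBS and at 897.4, 883.6 and 878.2 CPM in EKO_exo, with overlapping libraries and a log2 fold change of 0.03 ± 0.027 (95% interval -0.03 to 0.09). Lck, the kinase bound to CD4, was at 444.1, 464.2 and 449 CPM in PBS and at 460.1, 473.2 and 458.5 CPM in EKO_exo, with 0.04 ± 0.033 (95% interval -0.03 to 0.10). For both genes the interval lay below the estimate for Fyn, though the difference between genes was not tested. Zap70 was at 279.5, 294.6 and 284.4 CPM in PBS and 296.1, 297.1 and 305.6 CPM in EKO_exo, and Lat at 435.8, 419.2 and 424.7 CPM in PBS and 443.3, 447.2 and 471.8 CPM in EKO_exo. Neither overlapped between these groups, and neither passed, at 0.07 ± 0.035 (edgeR adjusted p = 0.343) and 0.09 ± 0.034 (edgeR adjusted p = 0.135). With the DESeq2 Wald test Lat was called too (adjusted p = 0.0389), where 519 of the 9625 genes it tested were called higher.

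All 10 members had a log2 fold change above 0, between 0.03 and 0.19, and this sign held in each of the 17 alternative fits, other scalings included. Over all genes tested 50% were above 0. The median was 0.08 for the members and 0.00 for all genes tested. It was 0.10 (2 of 5 higher) for the receptor chains and 0.07 (1 of 5 higher) for coreceptor, kinases and adaptor. With EKO_exo replicate 2 as the only EKO_exo library 0 of 10 members were called, a fit in which PBS and WT_exo alone supply the spread.

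Sums over marker lists were compared in the same libraries. The summed level of 6 CD4 T cell markers was 2500 to 2570 CPM in PBS, 2421 to 2499 in WT_exo and 2584 to 2678 in EKO_exo. This list holds the members Cd4, Cd3e, Cd3d and Cd3g besides Cd5 and Thy1, so its sum is not separate from the members. Thy1 was at -0.24 ± 0.037 log2 in WT_exo against PBS (edgeR adjusted p = 0.000139). In EKO_exo against PBS it was at -0.08 ± 0.037 (0.244). Cd5 was at 0.11 ± 0.034 in both (0.0516 in WT_exo, 0.0489 in EKO_exo). The summed level of 9 B cell markers was 523.5 to 565.9 CPM in PBS, 512.5 to 576.9 CPM in WT_exo and 610.3 to 616 CPM in EKO_exo. That sum came mostly from Ighm and Igkc, while Ms4a1, Cd79a, Cd79b, Pax5, Cd22 and Blk had group means of at most 1.69 CPM. Ighm (0.16 ± 0.037 log2) and Igkc (0.28 ± 0.060) rose in EKO_exo against PBS (edgeR adjusted p = 0.00795 and 0.0046). Neither passed without PBS replicate 1 (0.0619 and 0.0569), nor Ighm without PBS replicate 3 (0.0545). The summed level of 4 CD8 T cell markers was 28.89 to 32.22 CPM in PBS and 33.84 to 36.49 CPM in EKO_exo, but only Eomes rose (0.44 ± 0.111 log2, edgeR adjusted p = 0.017), which did not pass without EKO_exo replicate 2 (0.0799) or PBS replicate 2 (0.132). The other CD8 markers had negative values that did not pass: -0.36 for Cd8a, -0.23 for Cd8b1, with every EKO_exo library below every PBS library, and -0.19 for Gzmk. For gamma delta T cells (12.21 to 15.75 CPM over all libraries), macrophages and monocytes (19.44 to 30.04), dendritic cells (9.376 to 12.91), NK cells (0.6139 to 2.003) and neutrophils (3.451 to 8.538) the sums in PBS and EKO_exo overlapped. The macrophage sum came mostly from Lyz2. Within it Csf1r, a macrophage receptor gene at 0.87 ± 0.217 CPM in PBS and 2.277 ± 0.311 CPM in EKO_exo (SD, n = 3), rose by 1.38 ± 0.412 log2 without overlap (edgeR adjusted p = 0.0476). It passed without EKO_exo replicate 3 or WT_exo replicate 3 but in none of the other fits that leave out a library (0.0542 to 0.194), while Adgre1, another macrophage marker, had group means of at most 0.0352 CPM. Klra8, an NK cell marker, had a count of 0 in every library, which allows up to 3 counts, or 0.116 CPM in the shallowest. The part of the shifts in markers that are not members in the rise of Fyn, Cd247 and Cd3e was not tested.

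WT_exo was set against PBS to ask the same of exosomes from wild-type BMDM. No member passed: 0 of 10 were called higher and 0 lower (edgeR), where 1.83% and 3.14% of all genes tested were. At an unadjusted p under 0.05, 1 member (Fyn) was higher and 1 (Cd4) lower, where 7.35% and 8.43% of all genes tested were, and the DESeq2 Wald test called these 2, with 3.48% of the genes it tested called higher and 4.95% lower. Across the members 6 were above 0 and 4 below, where 50.8% of all genes tested were above 0, with a median log2 fold change of 0.02 against 0.00 for all genes. This comparison shares its PBS libraries with the first.

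Fyn was nearest to a call, at 0.11 ± 0.035 log2 (95% interval 0.04 to 0.18, edgeR adjusted p = 0.0765), with all WT_exo libraries above all PBS libraries. It was called when only the 6 libraries of the comparison were fitted (edgeR adjusted p = 0.0474) and by DESeq2 (adjusted p = 0.0148). Cd4 was at 827.5, 819.6 and 830.4 CPM in WT_exo, each below the lowest PBS library at 848.5 CPM. The log2 fold change was -0.07 ± 0.027 (95% interval -0.13 to -0.02, edgeR adjusted p = 0.148), and DESeq2 gave an adjusted p of 0.0305. Fyn was thus the 1 member with all libraries above PBS and Cd4 the 1 member with all below, while 10.6% and 11.6% of all genes tested showed these patterns.

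For the receptor chains in WT_exo against PBS the log2 fold changes were -0.01 ± 0.034 in Cd3e, -0.06 ± 0.048 in Cd3d, 0.02 ± 0.049 in Cd3g, 0.04 ± 0.034 in Cd247 and -0.06 ± 0.042 in Trbc2. All of these chains overlapped between the groups, Trbc2 at 173.8, 175.5 and 182 CPM and Cd3d at 139.3, 138.8 and 155.5 CPM in WT_exo. Lck (0.01 ± 0.033), Zap70 (0.05 ± 0.035) and Lat (0.06 ± 0.034) overlapped as well. Lck was at 440.5, 465.3 and 458.2 CPM in WT_exo, Zap70 at 292.9, 296.7 and 297.4 CPM, and Lat at 430.5, 449.3 and 453.3 CPM. The sign for Lck flipped in 4 of 17 alternative fits and that for Cd3g in 2, so no direction is given for these genes.

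**Figure D3:**
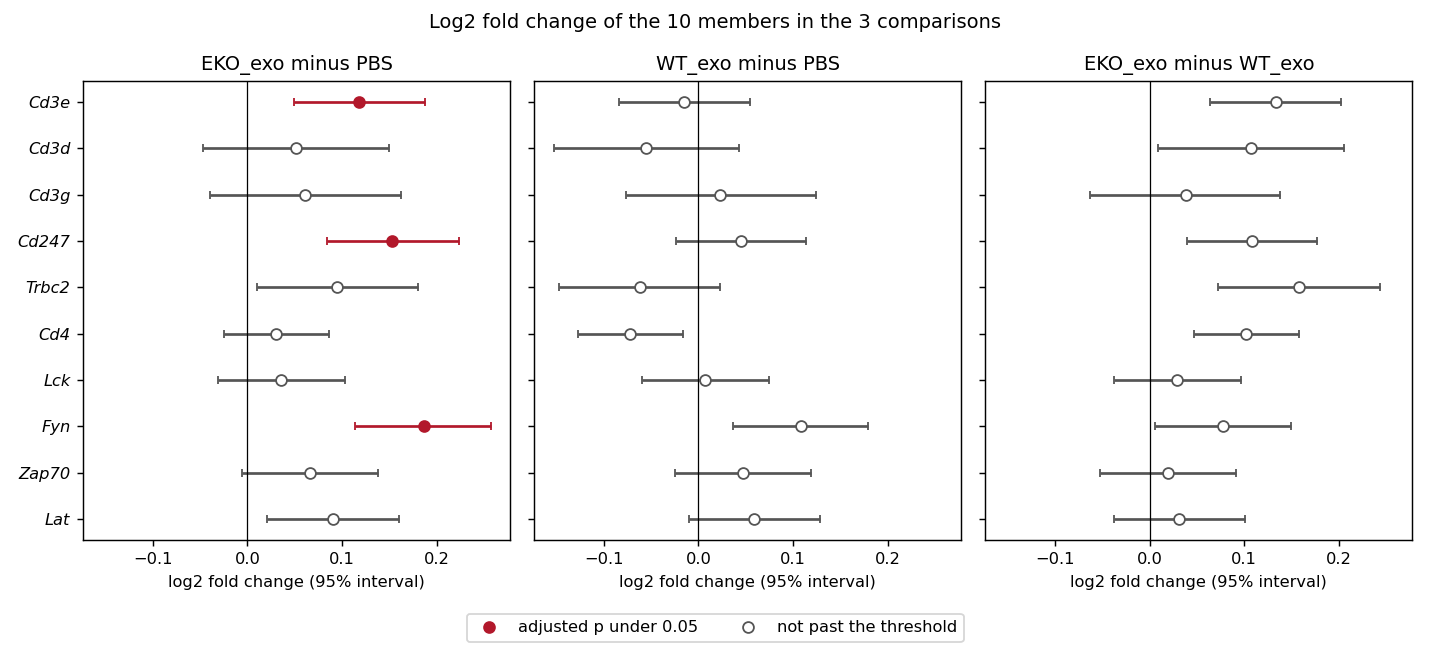
Log2 fold change of each member with its 95% interval (horizontal axes) in EKO_exo minus PBS, WT_exo minus PBS and EKO_exo minus WT_exo, with filled red points where the adjusted p was under 0.05 (edgeR). Filled points appear only for Fyn, Cd247 and Cd3e in EKO_exo minus PBS, and all 10 points lie above 0 in EKO_exo minus WT_exo.

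The direct comparison of EKO_exo with WT_exo asks whether the ApoE genotype of the exosome donors made a difference. It called 0 of 10 members in either direction (edgeR), with 0.0341% of all genes tested called. All 10 members were above 0, against 50.5% of all genes, with a median of 0.09 for the members and 0.00 for all genes. Cd3g fell below 0 (-0.009) without EKO_exo replicate 2. This comparison shares its EKO_exo libraries with the first and its WT_exo libraries with the second, so its signs are not independent of theirs. At an unadjusted p under 0.05, 6 of 10 members were higher and 0 lower, where 3.89% of all genes tested were higher and 3.19% lower. In 5 of 10 members every EKO_exo library exceeded every WT_exo library, which 5.88% of all genes tested showed. The DESeq2 Wald test, whose own filter left 3304 genes, called 0.878% of these higher. Among them were 4 members: Cd4, Cd3e, Trbc2 and Cd247 (adjusted p = 0.0021, 0.0105, 0.0192 and 0.0441). Of the CD4 T cell markers that are not members, Thy1 was at 0.155 ± 0.037 log2 without overlap (edgeR adjusted p = 0.243). Cd5 was at 0.001 ± 0.034 with overlap (0.999). Of the B cell markers Igkc was called higher in EKO_exo, at 0.43 ± 0.061 log2 without overlap (edgeR adjusted p = 0.00219). Ighm, at 0.11 ± 0.037 without overlap, did not pass (0.528), nor did the others of that list. Without WT_exo replicate 2 the edgeR fit called 0 genes. The part of these markers in the member differences was not tested.

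Trbc2 had the largest difference, at 0.16 ± 0.042 log2 (95% interval 0.07 to 0.24, edgeR adjusted p = 0.322), going from 177.1 ± 4.36 CPM in WT_exo to 197.6 ± 6.13 CPM in EKO_exo (SD, n = 3 each). Cd3e was at 0.13 ± 0.034 (95% interval 0.06 to 0.20), Cd247 at 0.11 ± 0.034 (0.04 to 0.18) and Cd3d at 0.11 ± 0.048 (0.01 to 0.20). Cd4 was at 0.10 ± 0.027 (0.05 to 0.16) and Fyn at 0.08 ± 0.035 (0.01 to 0.15). For these genes the interval of the difference itself excludes 0, while the edgeR p adjusted over all genes, 0.261 to 0.664, does not pass. None of them was called when a single library was left out. Their log2 fold changes then ran from 0.064 to 0.178 and the edgeR adjusted p from 0.116 to 0.961. Cd3g (0.04 ± 0.049), Lck (0.03 ± 0.033), Zap70 (0.02 ± 0.035) and Lat (0.03 ± 0.034) had intervals that include 0 and reach at most 0.14.

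Receptor chains were then set against coreceptor, kinases and adaptor as sums in each library. Summed receptor chain CPM (mean ± SD, n = 3) reached 1460 ± 22.3 in EKO_exo, against 1352 ± 36 in PBS and 1348 ± 30.3 in WT_exo. Summed CPM of Cd4, Lck, Fyn, Zap70 and Lat was 2426 ± 10, 2316 ± 19.5 and 2326 ± 17.9 in the same order. Both sums were higher in each EKO_exo library than in any of the 6 others, and PBS and WT_exo overlapped in both. The ratio of the sums ran from 0.592 to 0.613 in EKO_exo, from 0.574 to 0.598 in PBS and from 0.57 to 0.591 in WT_exo, so that EKO_exo overlapped PBS but not WT_exo. Sums over chosen genes were given no test. Of all counts, 0.387% to 0.388% fell on the 10 members in EKO_exo libraries, 0.362% to 0.371% in PBS libraries and 0.364% to 0.372% in WT_exo libraries.

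**Figure D4:**
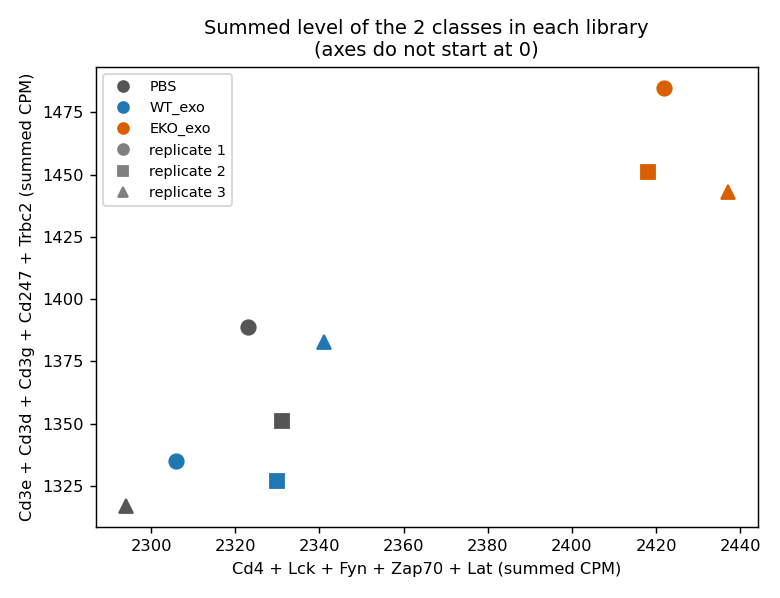
Summed CPM of the 5 receptor chain genes (vertical axis) against that of Cd4, Lck, Fyn, Zap70 and Lat (horizontal axis), 1 symbol per library, coloured by group, on axes that do not start at 0. The 3 EKO_exo libraries lie at or above 1443 and 2418 CPM, and the 6 other libraries at or below 1389 and 2341 CPM.

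Around the receptor, 50 further genes of proximal signalling were listed: the other receptor genes Trac and Trbc1, costimulatory and adhesion receptors, Tec family kinases, adaptors, effectors and negative regulators. All 50 passed the filter. Against PBS, EKO_exo had 7 of 50 higher and 2 lower, where 2.21% and 2.87% of all genes tested were, with a median log2 fold change of 0.05. WT_exo had 6 of 50 higher and 2 lower, where 1.83% and 3.14% of all genes tested were, with a median of 0.02. In both, the count of list genes called lower was near that share. The direct comparison of EKO_exo with WT_exo had 0 of 50 called (edgeR), with 3 higher and 1 lower at an unadjusted p under 0.05, near the 3.89% and 3.19% of all genes tested, and 1 called higher by DESeq2. Trac, the constant region of the receptor alpha chain and the partner of Trbc2, had a mean ± SD (n = 3) of 411.4 ± 2.47 CPM in EKO_exo, 384.2 ± 6.79 in PBS and 399.1 ± 10.3 in WT_exo. At 0.10 ± 0.033 log2 in EKO_exo against PBS it did not pass (edgeR adjusted p = 0.0794).

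Pik3cd, the catalytic subunit of the PI3 kinase of lymphocytes, had the smallest p of the list in either comparison with PBS. It was at 867.8, 893.1 and 859.4 CPM in PBS, 959.7, 970.3 and 957.9 CPM in EKO_exo and 967.2, 996.8 and 992.1 CPM in WT_exo. Both exosome groups lay above PBS without overlap and overlapped each other. Its log2 fold change was 0.14 ± 0.027 in EKO_exo (edgeR adjusted p = 0.00135) and 0.17 ± 0.027 in WT_exo (edgeR adjusted p = 0.000105), and it was called in each of the 17 alternative fits of either comparison. Dgkz, a diacylglycerol kinase that dampens signalling below Lat, was at 345.7, 361.6 and 361.9 CPM in PBS and at 417.5, 375.1 and 400.4 CPM in EKO_exo. It rose by 0.16 ± 0.037 log2 (edgeR adjusted p = 0.00878), but did not pass when EKO_exo replicate 1 (0.0656) or PBS replicate 1 (0.078) was left out. Themis, a thymocyte adaptor that acts with Lck and phosphatases, was at 54.19, 51.97 and 54.8 CPM in PBS and 41.94, 44.59 and 39.93 CPM in WT_exo. It fell by 0.35 ± 0.070 log2 in WT_exo (edgeR adjusted p = 0.00223) and kept that call without any single library. In EKO_exo Themis was at 43.64, 46.64 and 45.53 CPM, and its log2 fold change was -0.245 ± 0.070 (edgeR adjusted p = 0.0382). That call did not hold without EKO_exo replicate 1 or 3, WT_exo replicate 1 or any PBS library (0.0527 to 0.136).

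Cblb, a ubiquitin ligase that restrains receptor signalling, rose to 622.1 ± 33.3 CPM with EKO_exo and 634.9 ± 23 CPM with WT_exo, from 568.7 ± 4.33 CPM in PBS (SD, n = 3; edgeR adjusted p = 0.0254 and 0.00481). Prkcq, the protein kinase C of the T cell synapse, rose from 216.2 ± 11.2 CPM in PBS to 247.7 ± 5.76 CPM in WT_exo (edgeR adjusted p = 0.0024) and 238.2 ± 1.44 CPM in EKO_exo (edgeR adjusted p = 0.0385). The EKO_exo call held without PBS replicate 3 but in none of the other fits that leave out a library (0.0518 to 0.256). Tec, a non-receptor tyrosine kinase, fell from 10.8 ± 0.222 to 7.149 ± 1.38 CPM in EKO_exo (edgeR adjusted p = 0.0302). In WT_exo Tec was at 7.658 ± 1.41 CPM, also below PBS in every library, at -0.50 ± 0.164 log2 (edgeR adjusted p = 0.0837), which passed without EKO_exo replicate 3 (0.043) or WT_exo replicate 1 (0.0437). Between the exosome groups Tec differed by -0.10 ± 0.167 log2 (edgeR adjusted p = 0.943). Leaving out EKO_exo replicate 1 or any PBS library ended the Cblb call in EKO_exo (edgeR adjusted p up to 0.176), leaving out WT_exo replicate 1 ended that in WT_exo (0.0689), and leaving out EKO_exo replicate 3 or any PBS library ended the Tec call (up to 0.135). Skap1, an adaptor of integrin activation and the other gene called lower in WT_exo, was named after its value was seen, at -0.21 ± 0.059 log2 (edgeR adjusted p = 0.0332). It did not pass without WT_exo replicate 2 or 3 or any PBS library (0.0578 to 0.183).

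Counts over the list depended on single libraries, as did those over all genes tested. In EKO_exo against PBS the 7 called higher became 1 without EKO_exo replicate 1 or PBS replicate 1, 2 without PBS replicate 2, 3 without WT_exo replicate 2 and 4 without EKO_exo replicate 3 or WT_exo replicate 1 or 3. The 2 called lower became 0 without EKO_exo replicate 3 or any one PBS library and 1 without EKO_exo replicate 1 or WT_exo replicate 1. All genes called higher went from 325 to 209 without EKO_exo replicate 1, 154 without PBS replicate 1 and 148 without PBS replicate 2. Those called lower went from 421 to 298, 245 and 227 in these fits. In WT_exo against PBS the 6 called higher became 3 without WT_exo replicate 1 or 3, and the 2 called lower became 1 without any one PBS library or WT_exo replicate 2 or 3. All genes called higher went from 269 to 144 without WT_exo replicate 1 or 3. Those called lower went from 461 to between 269 (without PBS replicate 2) and 372 (without PBS replicate 3) where the list count fell. With EKO_exo replicate 2 as the only EKO_exo library, 1 of 50 was called higher against PBS and 0 lower.

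**Figure D5:**
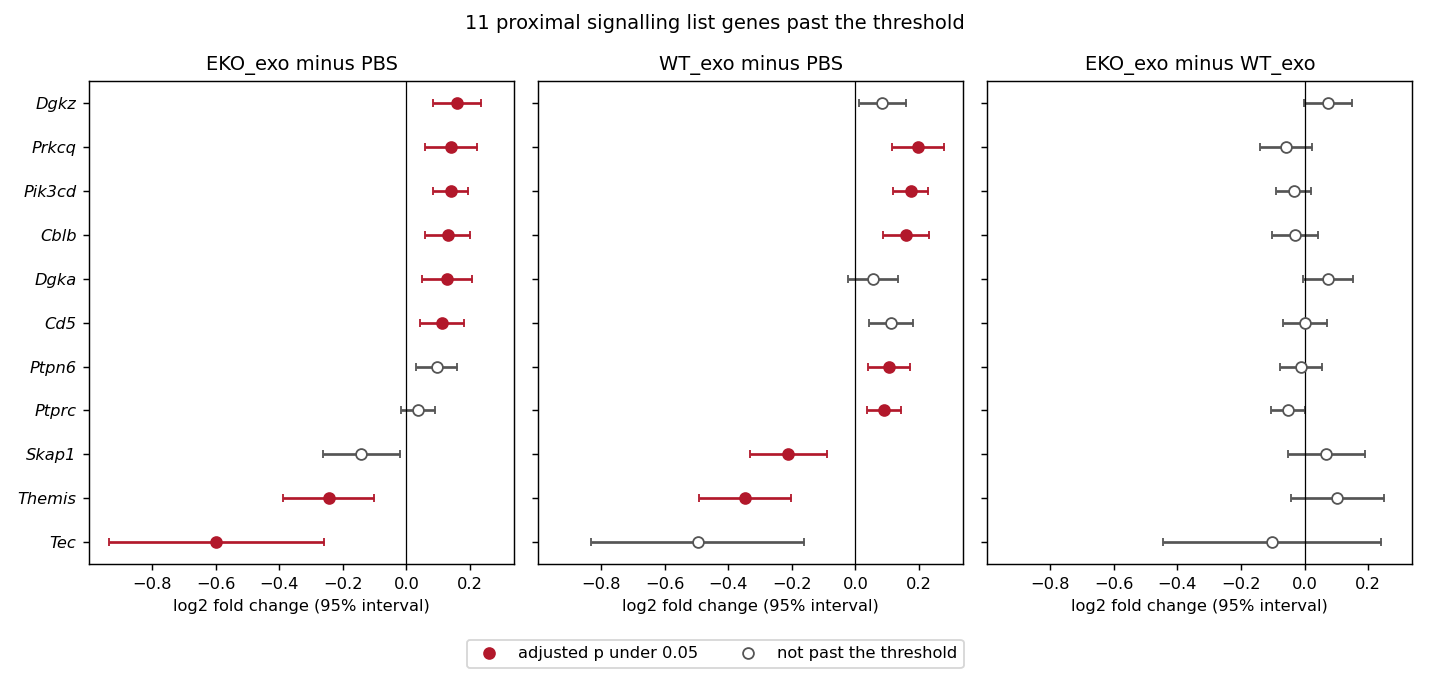
Log2 fold change with 95% interval (horizontal axes) of 11 list genes past the threshold in any comparison, in EKO_exo minus PBS, WT_exo minus PBS and EKO_exo minus WT_exo, with filled red points where the adjusted p was under 0.05 (edgeR). Pik3cd, Cblb and Prkcq are filled on the right of 0 and Themis on the left in both comparisons with PBS, which share the PBS libraries, and no point is filled in EKO_exo minus WT_exo.

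For the 3 members that rose, the gene with the most similar course over the 9 libraries was sought among 9231 other genes whose mean reached 5 CPM, by the root-mean-square difference of centred log2 CPM. It was Casc3 for Fyn, a component of the exon junction complex, at a difference of 0.025 log2, where the median over the genes searched was 0.121. For Cd247 it was Rhog, a small GTPase gene (0.023, median 0.115), and for Cd3e it was Pdpk1, which encodes the kinase PDK1 (0.026, median 0.116). In EKO_exo against PBS the log2 fold changes were 0.16 ± 0.041 for Casc3, 0.15 ± 0.044 for Rhog and 0.11 ± 0.044 for Pdpk1. Those of Fyn, Cd247 and Cd3e were 0.19, 0.15 and 0.12. This likeness follows from the choice, because each gene was picked for the smallest difference over the same 9 libraries. The smallest of 9231 differences also lies below their median by choice, so no link between the genes can be read from it.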

How the data were processed

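Whole-number counts per gene were used as the authors deposited them, without normalization. STAR 2.7.5c and the build GRCm38 are named in the submitters' processing notes. For counting, the tool, strand setting and annotation were not given in the sources used here. All 55536 identifiers had a symbol in GENCODE M21, whose exon lengths gave TPM. Groups and replicate numbers came from the titles. Replicates are called biological, but no label names separate mice. The p-values therefore cover the spread among these cultures, which may be technical.

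In R 4.3.3, edgeR 4.0.16 kept 14684 genes (filterByExpr, minimum count 10, minimum total 15), scaled by TMM and fitted 3 groups to 9 libraries without covariates. Quasi-likelihood F tests were two-sided, with Benjamini-Hochberg adjustment and a threshold of 0.05. SE and 95% intervals are of the log2 fold change. Alternatives were other scalings and filters, DESeq2 1.42.0, fits of 6 libraries, a replicate block and leaving out libraries. Scripts were tested on simulated data.

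The members and lists were chosen with earlier results of these data known. The text names all members, the 4 list genes with the smallest p among those called in each comparison (values per library for 2), and the nearest gene in course for the 3 members with the smallest p. Themis and Prkcq in EKO_exo, Tec and Skap1 in WT_exo, and the single marker genes were added after their values were seen. All 11 promoter motifs searched are reported, and the 2 in capitals were picked after their counts were seen. Counts over lists cover all their genes, some of which are not reported here by name.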

Additional observations from a re-analysis of the deposited data

How the results depend on the processing

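The 10 members in 3 comparisons were refitted under 17 alternatives each, 510 values in all. Of these 482 kept their direction and their side of the threshold. Most were not called in the main fit, so this total says little about the calls. Of the 3 that were called, Fyn and Cd247 kept the call in 9 of 9 fits that leave out a library, and Cd3e in 1. Cd3e also lost it with only the 6 libraries of the comparison (edgeR adjusted p = 0.068). In EKO_exo against PBS the number of members called higher was 2 to 3 when single libraries were left out and 0 with EKO_exo replicate 2 as the only EKO_exo library, an alternative chosen after seeing the data that uses fewer samples. List genes called higher there were 4 with upper quartile factors, 11 with DESeq2 and 3 with only the 6 libraries of the comparison. Of all genes tested, 286 of 14684, 519 of 9625 and 247 of 14011 were called higher in these fits. Without single libraries, 1 to 5 list genes were called higher and 0 to 2 lower, where 148 to 293 of all genes were called higher and 227 to 400 lower. In WT_exo against PBS members called higher were 1 with DESeq2 and 1 with only the 6 libraries, and members called lower were 1 with DESeq2. Of all genes tested, DESeq2 called 372 of 10679 higher and 529 lower, and the fit of 6 libraries called 436 of 14046 higher. Without single libraries list genes called higher were 3 to 7 and lower 1 to 3, where 129 to 337 of all genes were higher and 269 to 533 lower. In EKO_exo against WT_exo DESeq2 called 4 members and 1 list gene higher, while edgeR on the 9566 genes with a mean of 5 CPM or more called 0 members. The cause of these changes was not tested.

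The log2 fold change of WT_exo against PBS reversed for Lck with upper quartile factors (-0.004) and without single libraries (-0.006, -0.001 and -0.011, in a range of -0.011 to 0.03), and for Cd3g without single libraries (-0.018 and -0.003, in a range of -0.018 to 0.078). For EKO_exo against WT_exo that of Cd3g reversed without EKO_exo replicate 2 (-0.009, in a range of -0.009 to 0.073 without single libraries). None of these values was called in any fit. The ratio of receptor chain to signalling sums per kilobase of exon came to 0.88 in EKO_exo, 0.861 in PBS and 0.836 in WT_exo, and the ratio of CPM without single libraries to 0.596 to 0.607, 0.577 to 0.589 and 0.575 to 0.585.

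Libraries of the same replicate number did not deviate together (correlations -0.02 to 0.024 over 9 pairs, and -0.026 to 0.025 for other pairs), and 2 of 9 libraries correlated best with their own number, so the numbers were not taken as pairs. With the replicate block genes called went from 746 to 614 in EKO_exo against PBS, from 730 to 609 in WT_exo against PBS and from 5 to 1 between exosome groups. With the block Cd3e (edgeR adjusted p = 0.0517), Themis (0.0579) and Csf1r (0.0749) lost their calls in EKO_exo against PBS. List genes called higher in EKO_exo against PBS went from 7 to 4 and those called lower from 2 to 1. In WT_exo against PBS Skap1 lost its call (edgeR adjusted p = 0.0528), and list genes called lower went from 2 to 1. Across settings the genes called in all were 249 to 1019, 399 to 1068 and 0 to 37 in these comparisons. Each member had at least 4054 counts in a library. How much of its spread was counting error was not tested.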
